A study of Caenorhabditis elegans with 6 samples.

Results

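The 10 genes described here build and desaturate fatty acids in the nematode Caenorhabditis elegans. They are pod-2 and fasn-1 of fatty acid synthesis, the desaturase genes fat-1 to fat-7 and the regulator gene sbp-1. They were picked by name from the 16262 genes of the deposited table and role, not by a threshold on their values, with earlier results of these data known. All 10 were listed, and all 10 passed the filter on low values, a mean of at least 10 over the 6 libraries. RNA was sequenced from whole young adults of a strain with APEX2, an engineered peroxidase, joined to the RNA-binding protein LARP-1 at its own gene (LARP-1::APEX2, allele yq637, 3 libraries). The other strain carried GFP at the same protein (LARP-1::GFP, allele yq636, 3 libraries). Animals of both strains were fed Escherichia coli OP50 at 20 °C, soaked for 2 h at 25 °C in biotin-aniline at 3.3 mM and given H2O2 for 2 min. The titles speak of immunoprecipitation, but the protocols describe total RNA and no pull-down, so recovery near the tagged protein and RNA level in the strain cannot be told apart.

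As background, acetyl-CoA carboxylase, the product of pod-2, makes malonyl-CoA, and fatty acid synthase, the product of fasn-1, joins it into saturated palmitate. Delta-9 desaturases place the first double bond: FAT-5 acts mainly on palmitate, and FAT-6 and FAT-7 mainly on stearate, giving oleate. Worms then make polyunsaturated fatty acids themselves, through the delta-12 desaturase FAT-2, the delta-6 desaturase FAT-3, the delta-5 desaturase FAT-4 and the omega-3 desaturase FAT-1. SBP-1 is the worm member of the SREBP family, membrane-bound transcription factors that turn on lipid synthesis genes. The intestine and the hypodermis are the main sites of this synthesis in the worm.

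The desaturase genes formed 2 clusters on chromosome IV (coordinates of WBcel235, the assembly of ce11). The delta-5 gene fat-4 (WBGene00001396, 9799429 to 9802226, plus strand) ends 796 bases before the delta-6 gene fat-3 (WBGene00001395, 9803023 to 9806119, plus strand), with 0 annotated genes between them. The omega-3 gene fat-1 (WBGene00001393, 13315644 to 13318811, plus strand) lies 5061 bases before the delta-12 gene fat-2 (WBGene00001394, 13323873 to 13326395, plus strand), with 0 protein-coding genes between. The delta-9 genes are apart: fat-6 (WBGene00001398) on chromosome IV at 11913692 to 11915687, fat-5 (WBGene00001397) on chromosome V at 17725004 to 17726818 and fat-7 (WBGene00001399) on chromosome V at 7151353 to 7153146. The gene fasn-1 (WBGene00009342) is on chromosome I at 8975366 to 8986540. The gene pod-2 (WBGene00004076) is on chromosome II at 1136785 to 1152705, and sbp-1 (WBGene00004735) on chromosome III at 11428367 to 11442566. Without a stated strand setting, reads from overlapping exons cannot be assigned to a strand: fat-5 shares 28 exonic bases with twk-42, pod-2 139 with W09B6.4 and sbp-1 48 with idpc-1, each on the opposite strand. The closely related fat-6 and fat-7 may also have shared reads.

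Levels were compared between genes as normalized counts per kilobase of exonic sequence. In both strains fat-6 was the most abundant, with 3101 ± 795 per kilobase in LARP-1::APEX2 and 3334 ± 134 in LARP-1::GFP (SD, n = 3). The next in LARP-1::APEX2 were fat-1 (2092 ± 175) and fat-2 (1330 ± 80.7), whose libraries did not overlap, whereas in LARP-1::GFP fat-2 (1832 ± 83.5) and fat-1 (1731 ± 124) overlapped. The pair fat-3 and fat-4 followed, with overlapping levels of 446 ± 44.3 and 480 ± 73.0 per kilobase in LARP-1::APEX2 and 612 ± 34.8 and 581 ± 50.8 in LARP-1::GFP. Then came fat-7, at 280 ± 15.8 per kilobase in LARP-1::APEX2 and 141 ± 12.6 in LARP-1::GFP. The synthesis genes pod-2 and fasn-1 lay at 82.6 ± 6.87 and 71.6 ± 6.46 in LARP-1::APEX2 and 82.7 ± 10.0 and 69.1 ± 6.79 in LARP-1::GFP. With them stood fat-5, at 81.2 ± 7.32 per kilobase in LARP-1::APEX2, inside their range, and at 54.4 ± 8.06 in LARP-1::GFP, just under that of fasn-1. The lowest was sbp-1, with 7.05 ± 1.04 per kilobase in LARP-1::APEX2 and 12.9 ± 3.60 in LARP-1::GFP.

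**Figure D1:**
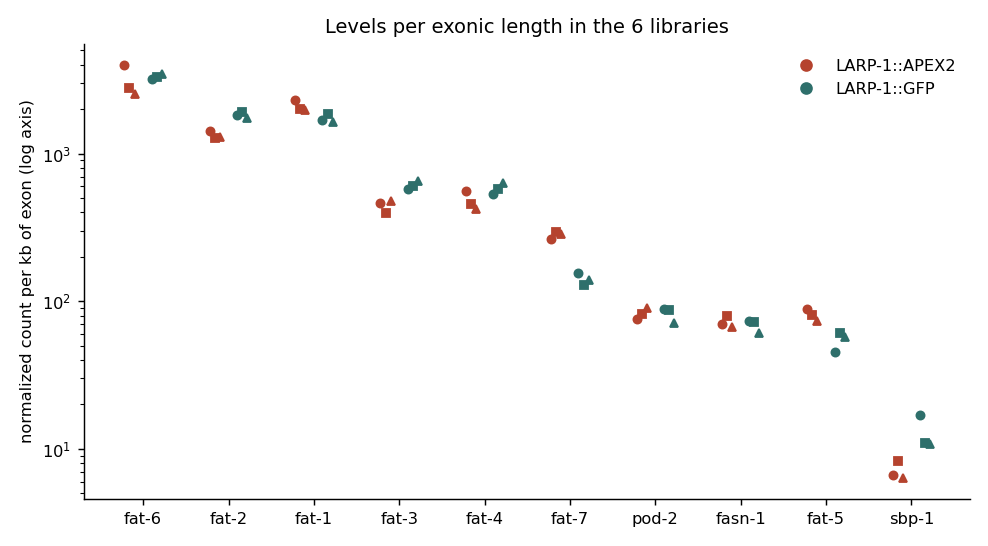
Normalized counts per kilobase of exon on a log axis for the 10 genes, ordered by their mean in LARP-1::GFP, with 1 marker per library (circle, square and triangle for replicates 1, 2 and 3). The range runs from sbp-1, at 7.05 in LARP-1::APEX2 and 12.9 in LARP-1::GFP, to fat-6, at 3101 and 3334.

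The libraries held between 3824041 and 6414569 reads on listed genes. The desaturases took 0.219% ± 0.0213 of them in LARP-1::APEX2 and 0.242% ± 0.00382 in LARP-1::GFP (SD, n = 3). Their sum was 11653, 9377 and 9143 normalized counts in LARP-1::APEX2 and 10353, 10905 and 10741 in LARP-1::GFP. The strains overlapped through LARP-1::APEX2 replicate 1 alone, and without it both LARP-1::APEX2 sums lay below all 3 LARP-1::GFP sums, as did their shares of reads (0.206% each, against 0.239% to 0.246%). LARP-1::APEX2 replicate 1 stood apart: on the second principal component of all tested genes (19.5% of the variance) it lay at 28.3, against -18.4 and -17.2 for replicates 2 and 3, and its desaturase sum was the highest of the 6.

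Single desaturase genes moved in opposite directions. Relative to LARP-1::GFP, the delta-9 genes fat-7 and fat-5 rose, the delta-12 gene fat-2 and the delta-6 gene fat-3 fell, the regulator sbp-1 fell, and the other 5 genes did not pass the test (limma on log2 values, Benjamini-Hochberg over 10534 genes, threshold 0.05). The test called 11.6% of all tested genes higher and 10.1% lower, 21.7% in either direction. The median log2 difference was -0.07 over the 10 genes and 0.02 over all tested genes. In 3 of the 10 genes every LARP-1::APEX2 library lay above every LARP-1::GFP library, and in 3 below, against 19.9% and 17.5% of all tested genes. Without LARP-1::APEX2 replicate 1, 1 gene was called higher (fat-7) and 5 lower, fat-4 and fat-6 being added to the 3. Calls over all 10534 tested genes also became more numerous without it, at 1310 higher and 1191 lower, against 1219 and 1069 with all 6 libraries. On the recovered reads, edgeR called 21.1% of all tested genes and DESeq2 18.9%. Of the 10 genes, edgeR called the same 2 higher and 3 lower, and DESeq2 left out fat-5. Nothing in the labels ties the replicates to separate cultures, and their spread may be technical. The limma p-values weigh each difference against that spread, pooled in part over all tested genes.

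**Figure D2:**
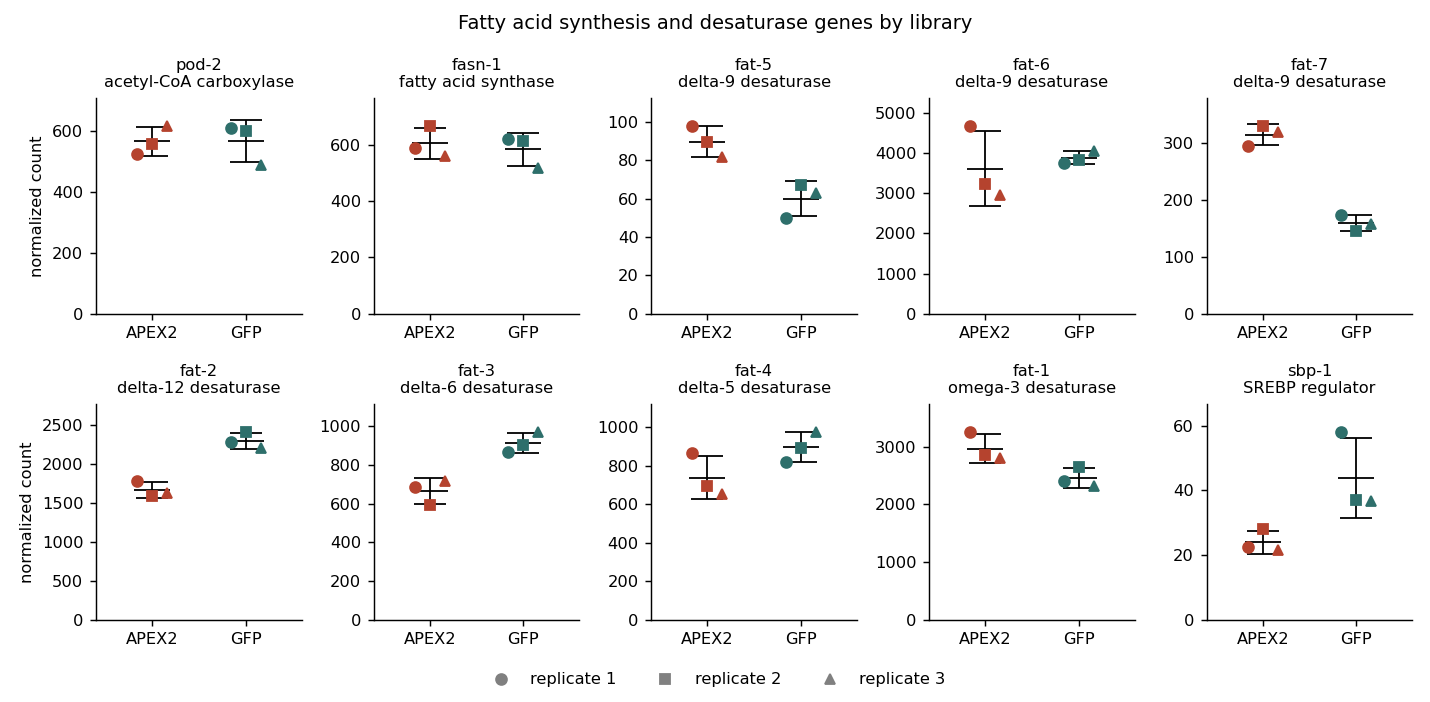
Normalized counts of each gene in the 3 LARP-1::APEX2 (left) and 3 LARP-1::GFP (right) libraries, with the mean and SD in black and each axis starting at 0. The groups separate for fat-7, fat-5 and fat-1, higher in LARP-1::APEX2, and for fat-2, fat-3 and sbp-1, lower there, while fat-6 in LARP-1::APEX2 spreads from 2945 to 4674.

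The genes of fatty acid synthesis did not pass in either direction. The carboxylase gene pod-2 had 523, 558 and 616 normalized counts in LARP-1::APEX2 and 612, 600 and 488 in LARP-1::GFP. Its log2 difference was 0.00 ± 0.12 (SE; 95% interval -0.25 to 0.26; limma adjusted p = 0.99). The synthase gene fasn-1 had 588, 666 and 561 normalized counts in LARP-1::APEX2 and 619.5, 614 and 517 in LARP-1::GFP. Its log2 difference was 0.05 ± 0.11 (95% interval -0.19 to 0.30; limma adjusted p = 0.78). Each strain's values fell inside or close to the other's, and the intervals leave room for changes of up to 0.30 on the log2 scale. The sign of these near-zero differences turned under other scalings, and pod-2 relative to fasn-1 differed by -0.05 in log2 ratio (exact permutation p = 0.7).

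Among the delta-9 genes, fat-7 had the largest rise of the 10. It had 296, 330 and 320 normalized counts in LARP-1::APEX2 and 174, 146 and 158 in LARP-1::GFP. The lowest LARP-1::APEX2 library was well above the highest LARP-1::GFP library. The log2 difference was 0.99 ± 0.13 (limma adjusted p = 0.00018), a 1.98-fold rise that ranked 223rd from the top of the 10534 tested genes. It lay between 0.93 and 1.05 when any 1 library was left out, with adjusted p-values up to 0.0034.

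The palmitate desaturase gene fat-5 rose from a lower level. It had 97.8, 89.6 and 81.6 normalized counts in LARP-1::APEX2 and 50.1, 67.2 and 62.8 in LARP-1::GFP. The groups did not overlap, and the values rest on 83 to 118 reads a library in LARP-1::APEX2 and 51 to 60 in LARP-1::GFP. The log2 difference was 0.58 ± 0.19 (limma adjusted p = 0.042). The call ended without LARP-1::APEX2 replicate 1 or 2 (adjusted p = 0.072 and 0.091) or LARP-1::GFP replicate 1, 2 or 3 (0.18, 0.065 and 0.10), with DESeq2 (0.083), with no filter on low values (0.058), with libraries scaled to the same total (0.063) and after correction for exonic length (0.057).

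The stearate desaturase gene fat-6, the most abundant of the family, did not pass. It had 4674, 3230 and 2945 normalized counts in LARP-1::APEX2 and 3765, 3834 and 4064 in LARP-1::GFP. Replicate 1 of LARP-1::APEX2 was the highest of the 6 libraries and replicates 2 and 3 were the lowest. The log2 difference was -0.13 ± 0.14 (95% interval -0.43 to 0.16; limma adjusted p = 0.55). Without LARP-1::APEX2 replicate 1 it was -0.33 and passed as lower (adjusted p = 0.012). Where fat-6 was highest among the LARP-1::APEX2 libraries, fat-7 was lowest.

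In the make-up of the delta-9 transcripts, no LARP-1::APEX2 library fell in the range of the LARP-1::GFP libraries. Of the reads on fat-5, fat-6 and fat-7, fat-7 held 5.84%, 9.05% and 9.57% in LARP-1::APEX2 and 4.36%, 3.60% and 3.68% in LARP-1::GFP. The fat-5 share was 1.93%, 2.45% and 2.44% in LARP-1::APEX2 and 1.26%, 1.66% and 1.47% in LARP-1::GFP. The rest was fat-6, at 89.6% ± 2.32 in LARP-1::APEX2 and 94.7% ± 0.243 in LARP-1::GFP (SD, n = 3). As a log2 ratio, fat-7 to fat-6 was 1.12 higher and fat-5 to fat-6 0.71 higher in LARP-1::APEX2, with no overlap between the strains (exact two-sided permutation p = 0.1 for each, 0.17 adjusted over 5 ratios). With 3 libraries against 3 that test cannot go below 0.1. The summed delta-9 level was 5067, 3649 and 3347 normalized counts in LARP-1::APEX2 and 3989, 4047 and 4284 in LARP-1::GFP. It too overlapped only through LARP-1::APEX2 replicate 1, and the other LARP-1::APEX2 libraries lay below all LARP-1::GFP libraries.

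Of the polyunsaturated pathway, the delta-12 gene fat-2, whose product turns oleate into linoleate, fell. It had 1784, 1592 and 1633 normalized counts in LARP-1::APEX2 and 2282, 2412 and 2204 in LARP-1::GFP. All LARP-1::APEX2 libraries lay below all LARP-1::GFP libraries. The log2 difference was -0.46 ± 0.10 (limma adjusted p = 0.0036), and with any 1 library left out it stayed between -0.51 and -0.43 and passed.

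The delta-6 gene fat-3 also fell. It had 688, 591 and 717 normalized counts in LARP-1::APEX2 and 866, 904 and 969 in LARP-1::GFP, with no overlap. The log2 difference was -0.46 ± 0.11 (limma adjusted p = 0.0076), and the call ended without LARP-1::GFP replicate 3 (adjusted p = 0.059). Its neighbour fat-4, the delta-5 gene that completes arachidonic and eicosapentaenoic acid, had 866, 697 and 653 normalized counts in LARP-1::APEX2 and 818, 894 and 974 in LARP-1::GFP. The groups overlapped through LARP-1::APEX2 replicate 1. The log2 difference of -0.28 ± 0.12 did not pass (95% interval -0.54 to -0.03; limma adjusted p = 0.11). It was -0.40 without LARP-1::APEX2 replicate 1 (adjusted p = 0.0077), -0.34 with libraries scaled to the same total (0.041) and -0.37 after quantile normalization (0.027), where it passed. The ratio of fat-4 to fat-3 overlapped between the strains, at 1.26, 1.18 and 0.911 in LARP-1::APEX2 and 0.945, 0.989 and 1.01 in LARP-1::GFP (exact permutation p = 0.4).

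The omega-3 gene fat-1, whose product converts omega-6 into omega-3 fatty acids, had a positive difference, unlike its neighbour fat-2. It had 3248, 2848 and 2793 normalized counts in LARP-1::APEX2 and 2398, 2648 and 2309 in LARP-1::GFP, with no overlap. Its own log2 difference of 0.27 ± 0.10 did not pass (95% interval 0.06 to 0.49; limma adjusted p = 0.068). The ratio of fat-1 to fat-2 was 1.82, 1.79 and 1.71 in LARP-1::APEX2 and 1.05, 1.10 and 1.05 in LARP-1::GFP. That is 0.73 higher on the log2 scale in LARP-1::APEX2, with SDs of 0.05 and 0.04 (exact permutation p = 0.1, the smallest possible, 0.17 adjusted over 5 ratios). Of the reads on fat-1 to fat-4, fat-1 held 49.1% ± 0.793 in LARP-1::APEX2 and 37.4% ± 1.45 in LARP-1::GFP, and fat-2 held 27.7% ± 0.550 and 35.1% ± 0.864 (SD, n = 3). A ratio within a library does not depend on its scaling, but shows unequal change, not which gene moved.

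**Figure D3:**
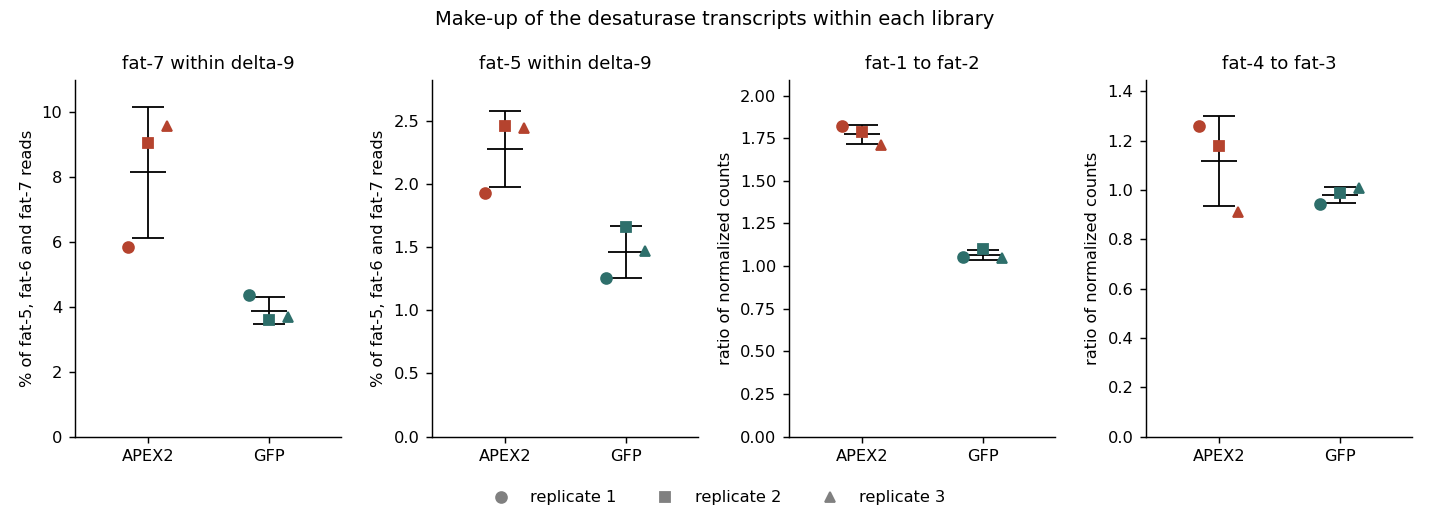
Share of fat-7 and of fat-5 in the delta-9 desaturase reads, and ratios of fat-1 to fat-2 and fat-4 to fat-3, in each LARP-1::APEX2 (left) and LARP-1::GFP (right) library, with mean and SD in black. The fat-7 share is 5.84% to 9.57% in LARP-1::APEX2 and 3.60% to 4.36% in LARP-1::GFP, and the fat-1 to fat-2 ratio 1.71 to 1.82 against 1.05 to 1.10, while the fat-4 to fat-3 ratio overlaps.

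The regulator gene sbp-1 fell. It had 22.4, 28.0 and 21.4 normalized counts in LARP-1::APEX2 and 57.9, 37.0 and 36.5 in LARP-1::GFP. The groups did not overlap, but the values rest on 19 to 31 reads a library in LARP-1::APEX2 and 32 to 59 in LARP-1::GFP. The log2 difference was -0.82 ± 0.26 (95% interval -1.39 to -0.26; limma adjusted p = 0.039). LARP-1::GFP replicate 1 was the highest of its group, and without it the difference was -0.61 and did not pass (adjusted p = 0.21). The call also ended without LARP-1::GFP replicate 2 or 3 (0.069 and 0.074) or LARP-1::APEX2 replicate 3 (0.073).

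**Figure D4:**
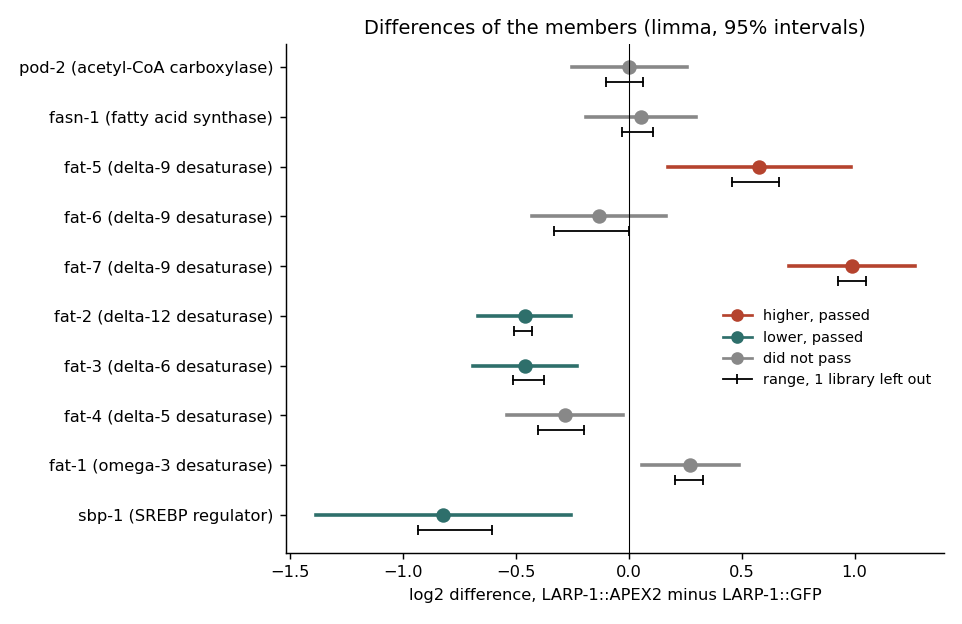
Log2 difference, LARP-1::APEX2 minus LARP-1::GFP, of each gene with its 95% interval (coloured bars, limma) and, in black beneath it, the range of the difference when 1 library is left out. The values run from -0.82 for sbp-1 to 0.99 for fat-7, and the range for fat-6 reaches from -0.33 to just under 0.

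Other regulators of the desaturases moved in both directions. Of 8 listed, 7 were in the table, 6 were tested, 3 rose and 2 fell, where 11.6% and 10.1% of all tested genes did. The median log2 difference was 0.11, against 0.02 over all tested genes. The gene mdt-15, whose product is a Mediator subunit that works with SBP-1 and NHR-49, fell. It had 90.7, 84.0 and 108 normalized counts in LARP-1::APEX2 and 190.5, 223 and 216 in LARP-1::GFP. Its log2 difference was -1.15 ± 0.16 (limma adjusted p = 0.00021). Each LARP-1::APEX2 library was far below each LARP-1::GFP library. The gene of NHR-49, a nuclear hormone receptor known to promote fat-7 expression, rose: nhr-49 had 1335, 1033 and 975 normalized counts in LARP-1::APEX2 and 741, 809 and 735 in LARP-1::GFP. Its log2 difference was 0.54 ± 0.12 (limma adjusted p = 0.0060). The gene scp-1, for the SCAP homologue that escorts SREBP proteins, rose by 0.50 ± 0.12 (limma adjusted p = 0.0087), and did not pass without LARP-1::GFP replicate 2 (0.051). The receptor gene nhr-66 rose by 0.42 ± 0.13 (limma adjusted p = 0.027) and the FOXO gene daf-16 fell by 0.36 ± 0.11 on the log2 scale (limma adjusted p = 0.0285). The call of nhr-66 ended with equal totals (0.070), after quantile normalization (0.059) and without replicate 2 or 3 of either strain, and that of daf-16 without any 1 library other than LARP-1::APEX2 replicate 1, with adjusted p-values of up to 0.13 for each.

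Fatty acid elongation lengthens the chains between desaturation steps. The test called 8 of its 12 genes higher and 0 lower, where 11.6% and 10.1% of all tested genes were. Their median log2 difference was 0.70, against 0.02 over all tested genes. The genes elo-4 (0.02), elo-7 (0.22) and let-767 (0.30) overlapped between the strains and did not pass. Nor did elo-8 (-0.55; limma adjusted p = 0.31), lower in LARP-1::APEX2 without overlap. The palmitate elongase gene elo-2 had 638 ± 8.46 normalized counts in LARP-1::APEX2 and 268 ± 26.4 in LARP-1::GFP (SD, n = 3). It rose by 1.25 ± 0.11 on the log2 scale (limma adjusted p = 9.2e-06). Among the others that rose were hpo-8 (0.90) and art-1 (0.92), of the later steps of the elongation cycle, and elo-1 (0.90), which acts on polyunsaturated chains. The remaining rises were elo-3 (0.40), elo-5 (0.73), elo-6 (0.68) and elo-9 (0.83). The call of elo-9 ended without any 1 library (adjusted p up to 0.18), with edgeR (0.064), with DESeq2 (0.14), with no filter (0.069), with TMM factors (0.053), with equal totals (0.068) and after correction for exonic length (0.063). That of elo-3 ended without LARP-1::GFP replicate 2 or 3 (0.059 and 0.069) and that of elo-5 without LARP-1::GFP replicate 3 (0.062).

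Of 6 genes that supply citrate-derived acetyl-CoA or NADPH for synthesis, 3 rose and 0 fell, where 11.6% and 10.1% of all tested genes did. Their median log2 difference was 0.48, against 0.02 over all tested genes. The genes acly-1 (0.26; limma adjusted p = 0.13) and acly-2 (-0.0052; 0.98) did not pass. The 3 that rose encode NADPH-producing enzymes. The cytosolic isocitrate dehydrogenase gene idh-1 rose by 0.61 ± 0.12 (limma adjusted p = 0.0032), the malic enzyme gene men-1 by 0.50 ± 0.12 (0.0096) and the phosphogluconate dehydrogenase gene T25B9.9 by 0.47 ± 0.10 (0.0036). The call of men-1 ended without LARP-1::GFP replicate 3 (adjusted p = 0.059). Another gene of NADPH supply, gspd-1, overlapped between the strains and did not pass (0.51 ± 0.18; limma adjusted p = 0.062). Cytochrome b5 and its reductase pass electrons to desaturases. Of 4 such genes, 3 were tested, and the reductase gene hpo-19 rose by 0.45 ± 0.10 (limma adjusted p = 0.0045). The cytochrome gene cytb-5.1 had a positive difference of 0.38 ± 0.14 without overlap, but did not pass (limma adjusted p = 0.069). The cytochrome gene cytb-5.2 fell by 0.34 ± 0.10 on the log2 scale (limma adjusted p = 0.031), which did not pass after correction for exonic length (-0.18; 0.25) and without any 1 library other than LARP-1::APEX2 replicate 1 (up to 0.15). Of 6 genes of membrane fluidity sensing, a pathway known to act on the delta-9 desaturases, 1 rose (11.6% of all tested genes did). That was iglr-2, for the partner of the receptor PAQR-2, by 0.42 ± 0.12 (limma adjusted p = 0.018). It did not pass without LARP-1::APEX2 replicate 2 or LARP-1::GFP replicate 1 or 3 (0.064, 0.074 and 0.11).

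Genes of phosphatidylcholine synthesis, known in worms to feed back on SBP-1, had a median log2 difference of 0.74. Over all tested genes the median was 0.02. The test called 4 of 8 higher and 1 lower, against 11.6% and 10.1% of all tested genes. The genes cept-2 (-0.01), lpin-1 (-0.23) and pcyt-1 (0.53; limma adjusted p = 0.064) did not pass. The choline kinase gene ckb-2 rose by 1.53 ± 0.20 (limma adjusted p = 0.00018). The methyltransferase gene pmt-2 rose by 1.16 ± 0.14 (limma adjusted p = 7.5e-05). The S-adenosylmethionine synthetase gene sams-1 had 1188, 1343 and 1321 normalized counts in LARP-1::APEX2 and 662, 720 and 541 in LARP-1::GFP. It rose by 1.01 ± 0.12 on the log2 scale (limma adjusted p = 6.3e-05). The phosphotransferase gene cept-1 rose by 0.95 ± 0.25 (limma adjusted p = 0.0155). It did not pass without LARP-1::APEX2 replicate 2 or LARP-1::GFP replicate 1 or 3 (0.056, 0.065 and 0.075). The other methyltransferase gene, pmt-1, fell: it had 1803, 1594 and 1584 normalized counts in LARP-1::APEX2 and 2752, 2767 and 2769 in LARP-1::GFP, a log2 difference of -0.74 ± 0.10 (limma adjusted p = 0.00015).

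**Figure D5:**
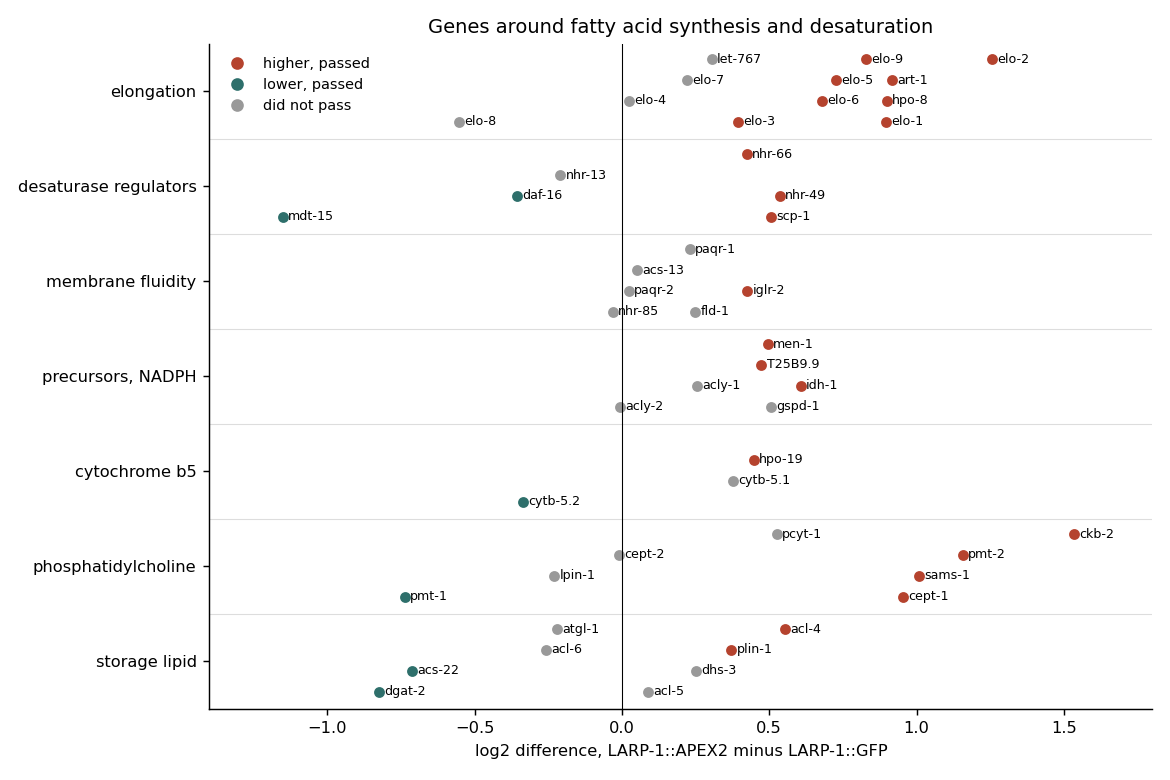
Log2 difference, LARP-1::APEX2 minus LARP-1::GFP, of each tested gene of 7 lists around fatty acid synthesis and desaturation, coloured by whether it passed the test as higher, passed as lower or did not pass. Of 12 elongation genes 8 were higher, where 11.6% of all tested genes were. Among the regulators mdt-15 (-1.15) and among the phosphatidylcholine genes pmt-1 (-0.74) were lower.

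Markers of tissues, among them the intestine and the hypodermis, also moved, in both directions. The tissue source of the desaturase transcripts was not measured. Of 10 intestine markers, 9 were in the table and tested. Of these, vha-6 (log2 difference 0.54) and act-5 (0.98) rose, and asp-1 (-0.32) and vit-2 (-0.48) fell. The call of asp-1 ended after quantile normalization (-0.14; adjusted p = 0.38) and without any 1 library other than LARP-1::APEX2 replicate 1 (up to 0.17), and that of vha-6 without LARP-1::GFP replicate 1 or 3 (0.066 each). The markers summed to between 66817 and 89461 normalized counts in LARP-1::APEX2 and between 86536 and 98662 in LARP-1::GFP. Most of this sum was asp-1 alone (mean 46093 in LARP-1::APEX2 and 57360 in LARP-1::GFP), so it says little of the other markers. Of 8 hypodermis markers, 7 were tested and bli-1 (1.76) and dpy-13 (0.73) rose, with sums of 4279 to 6016 in LARP-1::APEX2 and 4605 to 5497 in LARP-1::GFP. Most of that sum was col-19 (mean 4453 and 4485), which did not pass. The values of bli-1 were low, at 25.9, 41.1 and 25.6 normalized counts in LARP-1::APEX2 and 7.85, 10.1 and 6.85 in LARP-1::GFP. No marker of either tissue was at 0 in any library. Germline markers summed to between 16718 and 17194 in LARP-1::APEX2 and between 14003 and 15000 in LARP-1::GFP, with 3 of 7 higher and 1 lower. Most of the germline sum was gld-1 (mean 9701 and 8524), which did not pass. Of 6 muscle markers tested, 1 was higher and 1 lower, and of 8 neuron and 6 sperm markers tested the lowest limma adjusted p-values were 0.091 (egl-3) and 0.063 (gsp-3). Beside these marker counts, 11.6% of all tested genes were called higher and 10.1% lower. In whole animals, fewer cells of a type and less RNA per cell cannot be told apart, and the part of tissue make-up in the desaturase differences was not tested.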

How the data were processed

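The table the authors deposited holds normalized counts, a signal per gene that is its reads over a size factor of the library. The values themselves show this: dividing each library by its lowest nonzero value gave whole reads for 100% of values, with a tolerance of 0.001. Trim Galore, Bowtie, STAR, featureCounts, DESeq2 and the build ce11 appear in the submitters' processing notes. For none of them is a version, a setting or the use of strand given in the sources used here.

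Genes were matched by name to the Ensembl annotation of WBcel235, and exonic length is the union of annotated exons. Values were taken as log2(value + 1) for the 10534 genes with a mean of at least 10 and fitted with limma 3.58.1 in R 4.3.3 (trended, robust variance prior, no covariate). P-values were Benjamini-Hochberg adjusted over all tested genes, two-sided. The log2 scale with a pseudocount of 1 understates changes of low genes. As alternatives, recovered reads were tested with edgeR 4.0.16 (quasi-likelihood) and DESeq2 1.42.0 (Wald). A read stood for between 0.692 normalized counts (LARP-1::APEX2 replicate 3) and 1.18 (LARP-1::APEX2 replicate 1), so low values rest on few reads. Copies made by PCR were not told apart from molecules. Libraries of a strain differed beyond sampling noise (chi-square per degree of freedom 2.65 to 10.9), so none was treated as a library deposited more than once. That does not show that they are separate biological samples.

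The members, the lists and the tests were chosen with earlier results of these data known. Text names the members, list genes that passed, some list genes and markers that did not, and the 5 genes most like the summed desaturases. No promoter, protein or other sequence was used here.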

Additional observations from a re-analysis of the deposited data

How the results depend on the processing

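The rise of fat-7 and the fall of fat-2 kept their direction and passed under all 11 other settings and without any 1 library. Of 109 single-gene values of the 10 genes under those settings, 93 kept direction and side of the threshold, 6 were no longer past it, 2 passed newly and 8 changed sign. Of the 28 list genes that passed, 294 of 307 kept both and 13 were no longer past it. For the 6 intestine and hypodermis markers that passed, these were 63 of 65 and 2. The fat-5 call made the count of members higher fall to 1 with DESeq2, no filter on low values, equal totals, the replicate block and correction for exonic length. The block on replicate number left 1 member higher and 2 lower, fat-5 and sbp-1 no longer passing (adjusted p = 0.072 and 0.056). It also ended the calls of nhr-66, daf-16, elo-9, cytb-5.2 and the marker asp-1 (limma adjusted p = 0.056, 0.067, 0.072, 0.071 and 0.064). Deviations of same-numbered libraries correlated at r = -0.16, -0.08 and 0.02, which cannot show whether those libraries were prepared together. Over all genes the block called 984 higher and 883 lower. The differences that changed sign lay near 0. Those of pod-2 were -0.0201 with edgeR, -0.0178 with DESeq2, -0.0172 with TMM factors, -0.0540 with equal totals, -0.0821 with quantile normalization and -0.0346 corrected for length. Those of fasn-1 were -0.0031 with equal totals and -0.0290 with quantile normalization. Equal totals called 965 genes higher and 1219 lower, and quantile normalization 1086 higher and 1132 lower, against 1219 higher and 1069 lower with the deposited scaling. A mean of at least 50 gave no value for sbp-1. Without 1 library, 612 to 1310 genes were higher and 550 to 1191 lower over all genes, and 1 to 2 higher and 1 to 5 lower among the members. The counts over all genes were 744, 783 and 612 higher and 664, 638 and 550 lower without LARP-1::GFP replicates 1, 2 and 3 in turn. Without 1 library pod-2 lay between -0.102 and 0.0612 and fasn-1 between -0.0311 and 0.106. The 5 log2 ratios lay between 0.97 and 1.36 for fat-7 to fat-6, 0.61 and 0.85 for fat-5 to fat-6, 0.08 and 0.31 for fat-4 to fat-3, 0.72 and 0.76 for fat-1 to fat-2, and -0.17 and 0.03 for pod-2 to fasn-1. The cause of these changes with setting or library was not tested. The values of sbp-1 rest on 19 to 59 reads a library and those of fat-5 on 51 to 118.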

Other observations

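Among genes of storage lipid, 2 of 8 tested rose, 2 fell and 4 did not pass, around a median log2 difference of -0.07. Over all tested genes, 11.6% were called higher and 10.1% lower. The acyltransferase gene dgat-2, of triglyceride synthesis, had 89.6, 92.4 and 89.3 normalized counts in LARP-1::APEX2 and 169, 146 and 169 in LARP-1::GFP (log2 difference -0.82 ± 0.15; limma adjusted p = 0.0017). The acyl-CoA synthetase gene acs-22 fell by 0.71 ± 0.13 on the log2 scale (limma adjusted p = 0.0016). The glycerol-phosphate acyltransferase gene acl-4 rose by 0.55 ± 0.13 (limma adjusted p = 0.0071). The perilipin gene plin-1 rose by 0.37 ± 0.11 (limma adjusted p = 0.027), a call that ended without LARP-1::GFP replicate 1, 2 or 3 (0.077, 0.067 and 0.125).

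Over the 6 libraries, the genes whose log2 values ran closest to the summed desaturases, of 4489 with a conventional symbol and a mean of at least 50, were rps-18 (Pearson r = 0.995), ran-1 (0.98), lys-8 (0.98), trm-1 (0.98) and rfc-1 (0.98). Each was highest in LARP-1::APEX2 replicate 1, as the summed desaturases were. All genes of a library share its depth and scaling, and these were the closest of 4489 genes over only 6 libraries, so the correlations are a description.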
